A study of Danio rerio with 8 samples.

Results

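Neutrophil genes were followed in the brains of zebrafish that lack prosaposin, the precursor of the lysosomal saposin proteins. The set was taken from a list of 9 symbols used for zebrafish neutrophils (*mpx*, *lyz*, *ncf1*, *csf3r*, *lect2l*, *nccrp1*, *npsn*, *srgn* and *cebp1*) by matching the gene names of the study's own gene table. Of the 9, 7 were found among the 22871 genes of the count table. The other 2, *lyz* and *cebp1*, were not analysed here.

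RNA sequencing was performed on brains of untreated TuAB zebrafish at 4 months post fertilization (mpf). The first group was the *psap* knockout (*psap* KO), homozygous for a net CRISPR-Cas9 insertion in *psap*, in a line from 1 outcrossed heterozygous fish. The second was wildtype (WT) siblings at the same age and of the same strain. The authors used both sexes and describe the *psap* KO fish at this age as being at the symptomatic end stage. The genotypes were kept in separate tanks after fin clipping, so effects of genotype and tank cannot be told apart. Each genotype had 4 libraries, and each library held the pooled RNA of 3 brains, so the spread given here is between pools and not between fish. The libraries held 17562422 to 25127578 counts in *psap* KO brains and 15332163 to 23480758 in WT brains. The *psap* transcript itself was not reduced, at 381 to 450 CPM (read counts scaled to the size and composition of each library) in *psap* KO brains and 342 to 416 CPM in WT brains (log2 fold change 0.13, adjusted p = 0.206 by the edgeR quasi-likelihood test with Benjamini-Hochberg adjustment), so this count does not check the label of the insertion. The authors report from read alignments around the target site that the mutations are kept in the *psap* transcripts of knockout brains. The summed level of skeletal muscle genes was 18.9 to 27.4 CPM in *psap* KO libraries. It was 51.8 to 80.7 CPM in 3 WT libraries and 435 CPM in WT replicate 1, which stood apart. Most of each WT sum came from *ttn.1*, for titin, at 37.1 to 67.5 CPM in those 3 libraries and 302 CPM in WT replicate 1. Of 11 tested muscle genes, only *ttn.1* was separate between the genotypes. The other 10 overlapped and were not called. The part that the difference in the muscle sum has in the results was not tested. The calls on the neutrophil genes below were the same without WT replicate 1.

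Neutrophils are short-lived phagocytes that are made in the kidney marrow of adult fish and reach inflamed tissue through the blood. They kill microbes with proteases and peroxidase stored in granules and with superoxide made by the NADPH oxidase, their production is driven by granulocyte colony-stimulating factor (G-CSF) and its receptor, and they follow chemokines such as interleukin 8. Few of them are found in a healthy brain, and several of their genes, above all those of the oxidase and of granule packing, are also active in macrophages and microglia.

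The 7 genes did not move as a group. In *psap* KO brains, *lect2l*, *csf3r*, *ncf1*, *srgn* and *nccrp1* rose, while *mpx* and *npsn*, which encode stored enzymes, did not pass the test. Thus 5 of 7 were higher and none was lower at an adjusted p under 0.05 by the edgeR quasi-likelihood test, against a background of 22.3% of 21140 tested genes called higher and 18.5% called lower. Neither *mpx* nor *npsn* was lower by an unadjusted p or by DESeq2 or limma-voom either, since both had small positive differences. The same 5 genes had every *psap* KO library above every WT library, which was the case for 21.9% of all genes, and 18.3% had every *psap* KO library below. The median log2 fold change was 1.44 over the 7 genes and 0.02 over all genes tested. In RNA from bulk tissue, a change in the number of cells of a type and a change in the RNA that each cell makes cannot be told apart.

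**Figure D1:**
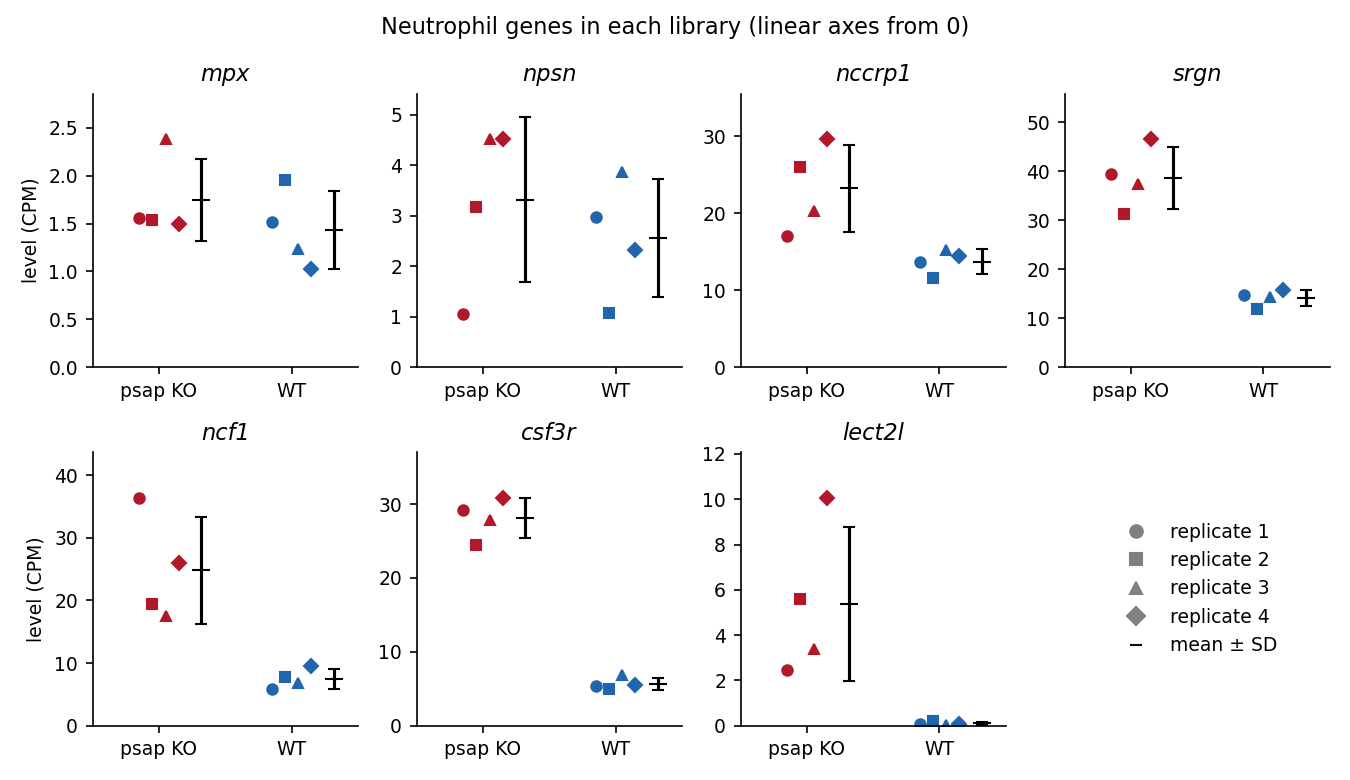
Level in CPM (linear axes from 0) of each neutrophil gene in 4 *psap* KO and 4 WT libraries, with the mean ± SD beside the points. The *psap* KO and WT points overlap for *mpx* and *npsn* and are separate for *nccrp1*, *srgn*, *ncf1*, *csf3r* and *lect2l*.

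*mpx* encodes the myeloid peroxidase of the granules and is the most widely used neutrophil marker in zebrafish (chromosome 10, 7778870 to 7785945, minus strand). Its level was 1.56, 1.54, 2.38 and 1.49 CPM in the *psap* KO libraries, and 1.51, 1.96, 1.23 and 1.02 CPM in the WT libraries. The genotypes overlapped, and replicate 3 lay above the other *psap* KO libraries, which were close together. The log2 fold change was 0.30 (SE 0.277, 95% interval -0.30 to 0.90), with an adjusted p of 0.422 by the edgeR quasi-likelihood test with Benjamini-Hochberg adjustment and p = 0.343 by an exact two-sided permutation test. Differences within that interval are not excluded by these libraries. Each library held only 28 to 49 reads of *mpx* in *psap* KO and 22 to 29 in WT brains. Counting error alone gives a coefficient of variation of 16.6% in *psap* KO and 19.5% in WT libraries at such counts, and the measured ones were 24.5% and 28.2%. The annotation names human EPX, the eosinophil peroxidase gene, as the homolog of *mpx*.

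*npsn* encodes nephrosin, a secreted metalloprotease first found in carp (chromosome 7, 38653481 to 38659477, minus strand). It had 1.06, 3.17, 4.52 and 4.52 CPM in the *psap* KO libraries, and 2.97, 1.08, 3.87 and 2.33 CPM in the WT libraries. The ranges of the genotypes overlapped over nearly their whole width, with replicate 1 lowest in *psap* KO and replicate 2 lowest in WT. The log2 fold change was 0.36 (SE 0.450, 95% interval -0.64 to 1.37), and the adjusted p was 0.559 by edgeR with Benjamini-Hochberg adjustment (exact permutation p = 0.543). The libraries of each genotype varied by 49.3% in *psap* KO and 45.8% in WT brains, about 3 times what counting error gives (14.6% and 16.7%).

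*nccrp1* encodes nonspecific cytotoxic cell receptor protein 1, first described on leukocytes of catfish (chromosome 5, 36850650 to 36854555, plus strand). Its level was 17.0, 26.0, 20.2 and 29.6 CPM in the *psap* KO libraries, and 13.6, 11.5, 15.3 and 14.4 CPM in the WT libraries. All *psap* KO libraries lay above all WT libraries, the lowest by a small margin. The rise was the smallest of the 5, with a log2 fold change of 0.76 (SE 0.162, 95% interval 0.41 to 1.12) and an adjusted p of 0.00292 by the edgeR quasi-likelihood test with Benjamini-Hochberg adjustment.

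*srgn* encodes serglycin, the proteoglycan core that packs proteases into granules in many blood lineages (chromosome 13, 23070581 to 23074454, minus strand). It stood at 39.4, 31.2, 37.3 and 46.5 CPM in the *psap* KO libraries, and at 14.7, 11.9, 14.3 and 15.7 CPM in the WT libraries. The lowest *psap* KO library was well above the highest WT library. The log2 fold change was 1.44 (SE 0.125, 95% interval 1.17 to 1.72, adjusted p = 2.6e-06 by edgeR with Benjamini-Hochberg adjustment).

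*ncf1* encodes p47phox, the cytosolic organizer subunit of the phagocyte NADPH oxidase (chromosome 5, 61432541 to 61445697, minus strand). It had 36.4, 19.4, 17.5 and 25.9 CPM in the *psap* KO libraries, and 5.83, 7.69, 6.82 and 9.49 CPM in the WT libraries. The groups were separate, and replicate 1 was the highest *psap* KO library, unlike for the other genes that rose. The log2 fold change was 1.73 (SE 0.245, 95% interval 1.18 to 2.28, adjusted p = 0.000378 by edgeR with Benjamini-Hochberg adjustment).

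*csf3r* encodes the G-CSF receptor, which drives neutrophil production and in zebrafish also acts in macrophage development (chromosome 16, 3103182 to 3127749, minus strand). Its level was 29.2, 24.5, 27.9 and 30.9 CPM in the *psap* KO libraries, and 5.35, 4.93, 6.82 and 5.44 CPM in the WT libraries. These were the tightest *psap* KO values of the set, with a coefficient of variation of 9.68%, and lay far from the WT values. The log2 fold change was 2.31 (SE 0.119, 95% interval 2.05 to 2.57, adjusted p = 5.1e-08 by edgeR with Benjamini-Hochberg adjustment).

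*lect2l* encodes a protein related to LECT2, a factor that attracts neutrophils in mammals (chromosome 14, 36885524 to 36887063, plus strand). It was nearly silent in WT brains. The level was 2.45, 5.59, 3.40 and 10.1 CPM in the *psap* KO libraries (44, 127, 70 and 263 counts), and 0.0540, 0.202, 0.0440 and 0.0930 CPM in the WT libraries (1, 3, 1 and 2 counts). Every *psap* KO library was far above every WT library, although the *psap* KO libraries themselves spread over a coefficient of variation of 63.1%. With 504 counts in *psap* KO and 7 in WT brains, the ratio scaled for library size was 63.9, with an exact 95% interval of 30.8 to 160 that covers counting error only. The fitted log2 fold change of 5.81 (SE 0.626, adjusted p = 3.9e-05 by edgeR with Benjamini-Hochberg adjustment) ranked 18 of 21140 genes, and its size depends on the prior count because of the few WT reads.

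How reads were counted where a neighbour overlaps *lect2l* is uncertain. A second homolog of LECT2, *si:ch211-132p1.3*, lies on the same strand (36886950 to 36893215) and overlaps *lect2l* by 114 bases. That gene had 18.3, 18.4, 16.3 and 21.9 CPM in the *psap* KO libraries, and 1.73, 1.15, 1.54 and 1.58 CPM in the WT libraries. It too rose, with a log2 fold change of 3.63 (SE 0.151, adjusted p = 1.2e-08 by edgeR with Benjamini-Hochberg adjustment), and it was named after its values were seen. The other 6 neutrophil genes overlap no annotated gene.

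For each of the 5 genes that rose, the exact two-sided permutation test of mean log2 CPM gave p = 0.0286, the smallest that 4 libraries against 4 allow. Replicate 4 was the highest *psap* KO library for *nccrp1*, *srgn*, *csf3r* and *lect2l* and the lowest for *mpx*. In order of log2 fold change, the 95% interval of *csf3r* did not reach that of *srgn* or *nccrp1*, while that of *ncf1* overlapped both *csf3r* and *srgn*.

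**Figure D2:**
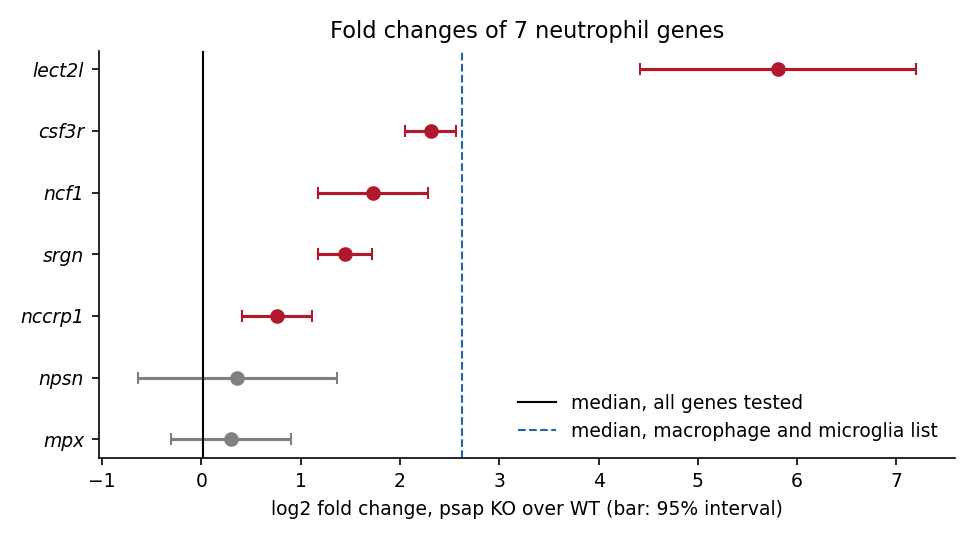
Fold changes (log2) between *psap* KO and WT brains for the 7 neutrophil genes (points) with 95% intervals (bars), red where the gene was called higher and gray where it was not called. The intervals of *mpx* and *npsn* include 0, and only that of *lect2l* lies above the median of the macrophage and microglia list (2.62, dashed line).

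Whether neutrophil genes kept pace with other leukocyte genes was examined by dividing each by *lcp1*, which encodes the actin-bundling protein L-plastin of all leukocytes, and by *mpeg1.1*, which encodes the pore-forming perforin-2 of macrophages. *lcp1* averaged 42.8 ± 8.40 CPM in *psap* KO brains and 10.6 ± 1.05 CPM in WT brains (SD, n = 4 each), and *mpeg1.1* averaged 60.1 ± 11.7 CPM in *psap* KO brains and 11.5 ± 0.760 CPM in WT brains (SD, n = 4 each). Both partners were thus higher in *psap* KO brains, so a gene whose own level did not change has a lower ratio there. On the log2 scale of these ratios, *mpx* differed between *psap* KO and WT brains by -1.71 relative to *lcp1* and by -2.07 relative to *mpeg1.1*, lower in *psap* KO brains. *npsn* differed by -1.69 and -2.05, *nccrp1* by -1.26 and -1.62, and *srgn* by -0.55 and -0.92, for *lcp1* and *mpeg1.1* in that order. *lect2l* was higher relative to both, by 2.69 and 2.32, or by 3.43 and 3.06 with a prior count of 0.5 in place of 2, since its WT counts are few. These 10 ratios did not overlap between the genotypes. Each had p = 0.0286 by the exact permutation test, the smallest it can give (adjusted p = 0.04 over 14 ratios). The rise of the partners enters every ratio, and the share of all genes with such separate ratios was not computed. The lower ratios are therefore not shown to be particular to neutrophil genes.

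The ratios of *csf3r* and *ncf1* overlapped between the genotypes. *csf3r* differed by 0.32 relative to *lcp1* (adjusted p = 0.109 by the exact permutation test) and by -0.05 relative to *mpeg1.1* (adjusted p = 0.6). *ncf1* differed by -0.31 relative to *lcp1* (adjusted p = 0.369 by the exact permutation test) and by -0.67 relative to *mpeg1.1* (adjusted p = 0.133). A p above the threshold does not show that these ratios are equal in both genotypes.

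**Figure D3:**
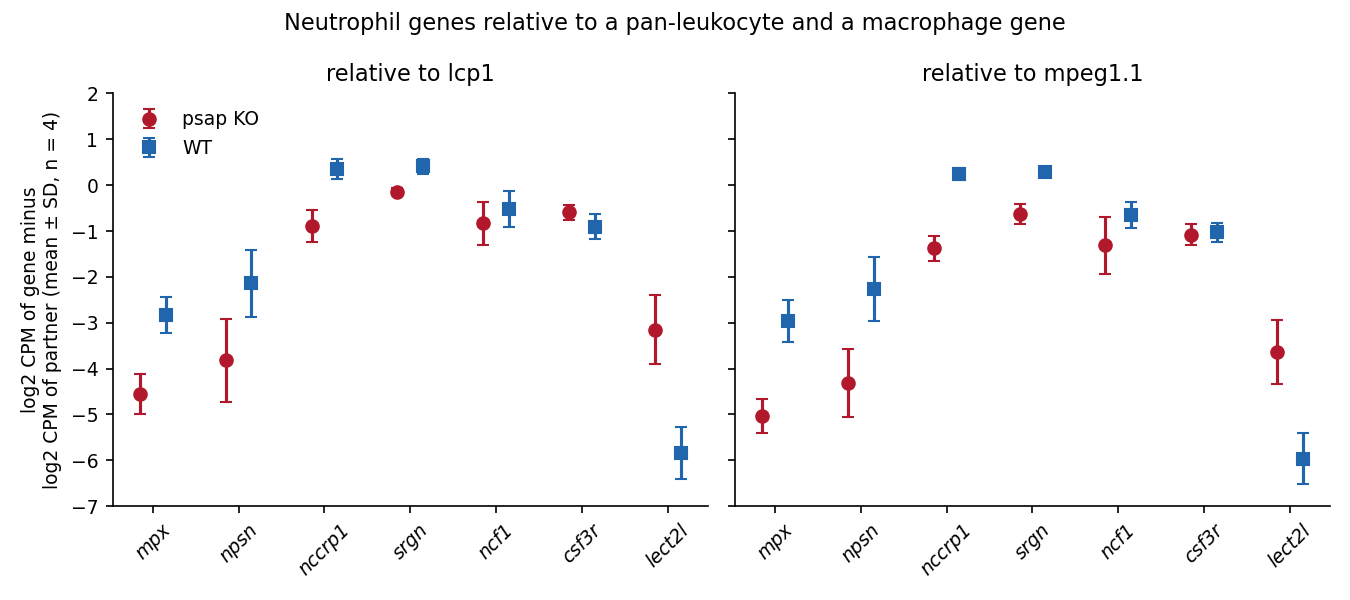
Log2 level of each neutrophil gene minus that of *lcp1* (left) or *mpeg1.1* (right), as mean ± SD over 4 *psap* KO (red circles) and 4 WT (blue squares) libraries. *mpx*, *npsn*, *nccrp1* and *srgn* lie lower in *psap* KO brains in both panels, *lect2l* lies higher, and *ncf1* and *csf3r* overlap.

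A direct comparison with *mpx*, chosen after the values were seen, set the other 6 genes against it. Relative to *mpx*, *lect2l* was higher in *psap* KO brains by 4.39, *csf3r* by 2.03 and *srgn* by 1.15 on the log2 scale, with no overlap between the genotypes (p = 0.0286 each by the exact permutation test, adjusted p = 0.0571 over the 6 ratios). For *ncf1* the difference was 1.40 (adjusted p = 0.0857 by the exact permutation test) and for *nccrp1* it was 0.45 (adjusted p = 0.343). For *npsn* the difference was 0.02 (adjusted p = 0.943 by the exact permutation test). Its log2 ratio to *mpx* had an SD of 0.88 in *psap* KO and 1.04 in WT brains. These values do not show that *npsn* and *mpx* changed alike. None of the 6 ratios passed an adjusted p of 0.05. With a prior count of 0.5, also chosen after the values were seen, the difference of *lect2l* was 5.13.

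Within each genotype, the 7 genes varied in different ways. After the genotype means were removed, the deviations of *mpx* over the 8 libraries had Pearson correlations of -0.51 to 0.01 with the other 6 genes. The highest among all pairs were 0.76 for *nccrp1* with *npsn* and 0.64 for *csf3r* with *srgn*. Among the genes whose deviations were most like those of *mpx*, of 15880 compared, were *p2ry1* (an ADP receptor gene, r = 0.97), *ifit11* (an interferon-induced gene, r = 0.97), *cacnb2b* (a calcium channel subunit gene, r = 0.96) and *sts* (the steroid sulfatase gene, r = 0.95). Their Spearman coefficients were 0.83 to 1, and r was 0.77 to 0.95 without the 2 libraries farthest from the median of *mpx*. All of these share their 8 libraries and the depth of each, and high values are reached by some genes when so many are compared over 8 points.

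Around *ncf1*, all 7 genes of the NADPH oxidase list rose in *psap* KO brains, *ncf1* included, against 22.3% of all genes tested. Their median log2 fold change, 1.73, was that of *ncf1* itself. *ncf4*, for the p40phox subunit, averaged 8.83 ± 0.507 CPM in *psap* KO and 1.97 ± 0.191 CPM in WT brains (SD, n = 4 each, log2 fold change 2.16). The membrane subunit gene *cyba* and the gene of the activating GTPase *rac2* had log2 fold changes of 2.50 and 2.09. All parts of the oxidase on the list thus rose. The catalytic subunit gene *cybb* had the smallest change, at 0.72 (adjusted p = 0.00206 by edgeR with Benjamini-Hochberg adjustment), named after its value was seen.

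Around *csf3r*, 12 of 15 tested genes of the granulopoiesis list were higher (median log2 fold change 1.83), *csf3r* included, against 22.3% of all genes tested. *spi1b*, which encodes the myeloid factor PU.1, had a log2 fold change of 3.22, and its related gene *spi1a* averaged 27.6 ± 0.774 CPM in *psap* KO and 6.04 ± 1.06 CPM in WT brains (SD, n = 4 each). *stat3*, which carries the signal of the G-CSF receptor, averaged 163 ± 14.6 CPM in *psap* KO and 43.0 ± 5.55 CPM in WT brains (SD, n = 4 each, log2 fold change 1.92). *irf8*, which is also among the 12 although in zebrafish it favors macrophages over neutrophils, had a log2 fold change of 2.50. The ligand gene *csf3a* averaged 1.78 ± 0.375 CPM in *psap* KO and 0.363 ± 0.152 CPM in WT brains (SD, n = 4 each, log2 fold change 2.27, adjusted p = 0.000216 by edgeR with Benjamini-Hochberg adjustment). The second ligand gene, *csf3b*, was below the filter on low counts with 38 counts in *psap* KO and 25 in WT brains. The ligand genes were singled out with their values known. So were *socs3a*, *jak2a* and *myb*, which were not called, at log2 fold changes of 1.07, -0.28 and 0.60.

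Of the neutrophil chemotaxis list, 10 of 13 tested genes were higher (median log2 fold change 1.82), against 22.3% of all genes tested. The chemokine gene *cxcl18b* averaged 14.5 ± 3.34 CPM in *psap* KO and 0.819 ± 0.374 CPM in WT brains (SD, n = 4 each, log2 fold change 4.10), and the cytokine gene *tnfb* had a log2 fold change of 3.81. *alox5ap*, needed for leukotriene synthesis, and *cxcr4b*, a receptor that holds neutrophils in the marrow, had log2 fold changes of 2.45 and 1.90. The tested genes not called were *alox5a*, *fpr1* and *cxcl12b*, at 0.45, 0.14 and -0.03, named with their values known.

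The genes for interleukin 8 and its receptor, chosen for mention with their values known, were almost unread in WT brains. *cxcl8a*, the interleukin 8 gene, had 3.79, 1.80, 2.43 and 4.10 CPM in the *psap* KO libraries (266 counts in all), against 1 count in all WT libraries. The scaled ratio was 236 with a counting interval of 42.0 to 9363. *cxcr1*, which encodes a receptor of interleukin 8, had 3.51, 1.94, 1.51 and 3.71 CPM in the *psap* KO libraries (235 counts), against 4 counts in the WT libraries, a scaled ratio of 52.2 with a counting interval of 20.1 to 193. For both genes every *psap* KO library was above every WT library, and both rose in the edgeR test with Benjamini-Hochberg adjustment (adjusted p = 2.7e-06 and 1.0e-05).

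**Figure D4:**
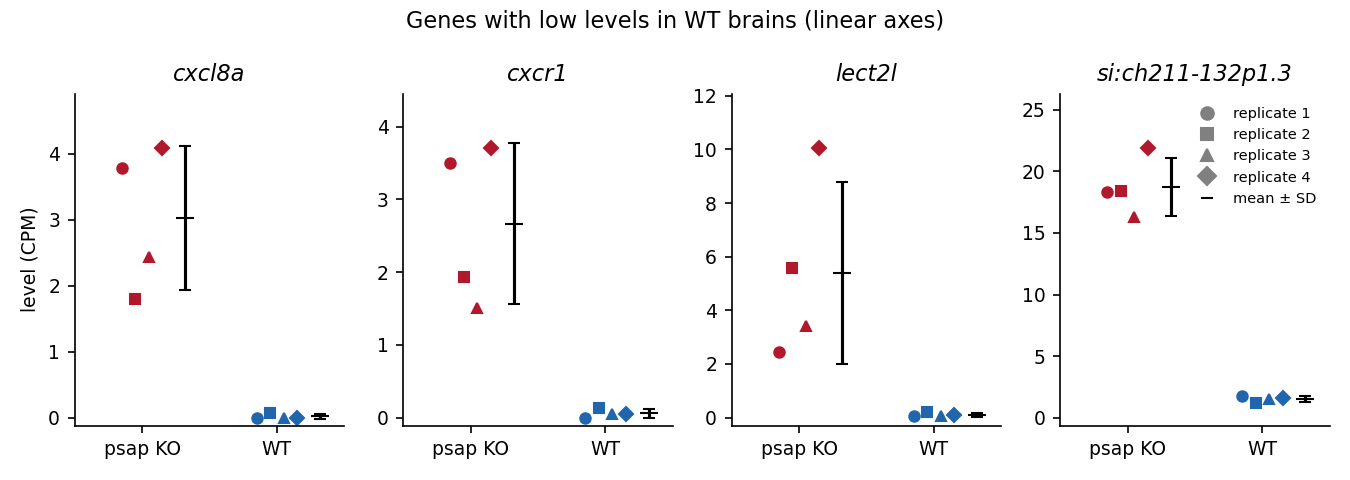
Level in CPM (linear axes) in 4 *psap* KO and 4 WT libraries, with mean ± SD, of *cxcl8a*, *cxcr1*, *lect2l* and its neighbour *si:ch211-132p1.3*. The first 3 genes had at most 3 counts in any WT library, and all 4 genes are separate between the genotypes.

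The list of granule proteins and proteases holds *mpx*, *npsn*, *srgn* and *lect2l*. It had 9 of 13 tested genes higher (median log2 fold change 2.19), against 22.3% of all genes tested. Its higher genes were mostly those of matrix metalloproteinases and a related protease, which macrophages and other cells also make. The other higher genes were *srgn*, *lect2l* and *hp*, and 4 genes of the list were not called. The filter on low counts left out *scpp8*, with 75 counts in *psap* KO and 1 in WT brains, and *illr4*, with 28 and 16. Both were named with their values known. For *hp* and *mmp25b*, named after their values were seen, the log2 fold changes were 4.17 and 2.19 (adjusted p = 0.00111 and 0.000696 by edgeR with Benjamini-Hochberg adjustment). *mmp14b*, for a membrane-bound collagenase, averaged 84.3 ± 12.8 CPM in *psap* KO and 13.7 ± 2.26 CPM in WT brains (SD, n = 4 each, log2 fold change 2.62). *mmp9*, for the gelatinase of late granules, averaged 14.4 ± 3.58 CPM in *psap* KO and 2.93 ± 0.674 CPM in WT brains (SD, n = 4 each, log2 fold change 2.30). *adam8a* and *mmp13b* had log2 fold changes of 3.03 and 2.07. Of the leukocyte adhesion and motility list, 13 of 14 tested genes were higher (median log2 fold change 2.07), against the same 22.3%. Among them were *itgb2*, for the beta subunit of leukocyte integrins, at 2.48, and *ptprc*, for the leukocyte surface phosphatase CD45, at 2.04. Others were *arpc1b*, for an actin-branching subunit, at 2.30 and *hcls1*, for a cortactin-like leukocyte protein, at 2.34.

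**Figure D5:**
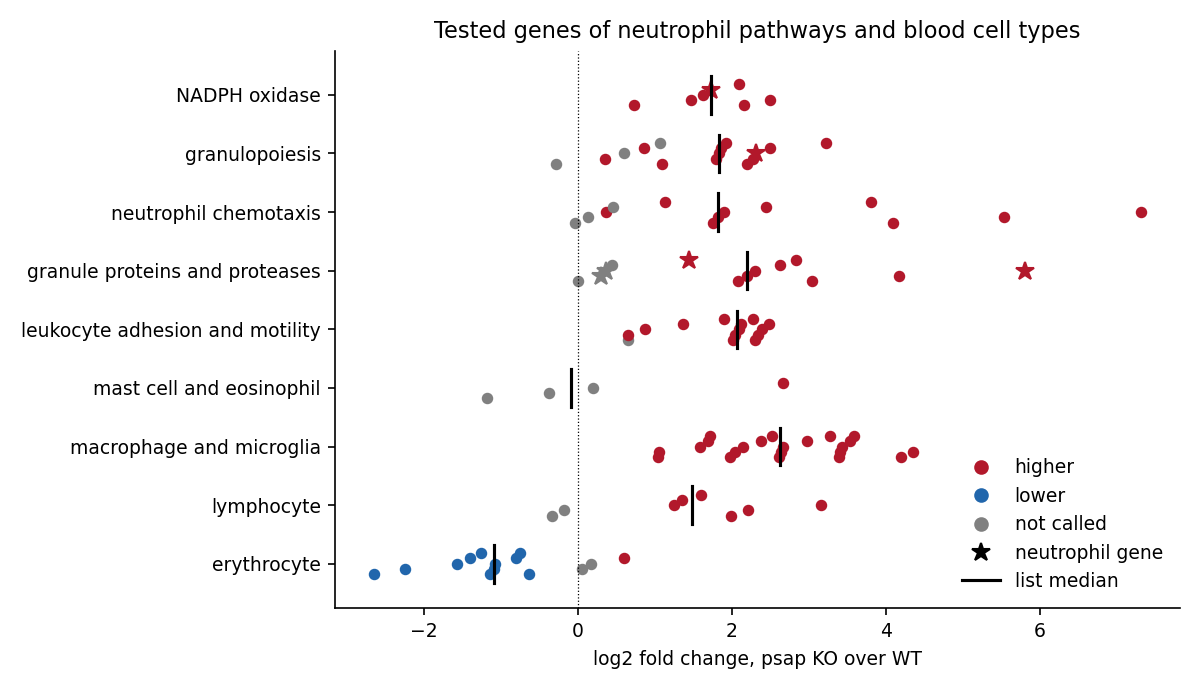
Fold changes (log2) between *psap* KO and WT brains for every tested gene of 5 neutrophil-related lists and 4 lists of other blood cells and macrophages. The list medians are bars, and the neutrophil genes on these lists are stars (*nccrp1* is on none of them). All macrophage and microglia genes lie above 0, most erythrocyte genes lie below 0, and *mpx* and *npsn* are the stars nearest 0.

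Most tested genes of the macrophage and microglia list and of the lymphocyte list also rose in *psap* KO brains. All 22 tested genes of the macrophage and microglia list were higher (median 2.62 on the log2 scale), and their summed level was 3356 to 4100 CPM in *psap* KO and 489 to 624 CPM in WT libraries. The list's leading genes *lgals3bpb*, *apoeb*, *ctss2.2* and *apoc1* had log2 fold changes of 3.53, 3.40, 3.27 and 2.51. Of the lymphocyte list, 6 of 8 tested genes were higher (median 1.48), with *cd4-1* at 3.15, *ccr7* at 2.21 and *il7r* at 1.99. *tagapa* averaged 2.52 CPM in *psap* KO and 0.822 CPM in WT brains. *pax5* and *rag2* of that list, named with their values known, were not called, at log2 fold changes of -0.18 and -0.33. Of the mast cell and eosinophil list (median -0.09), 1 of 4 was higher, near the share of 22.3% over all genes tested. It was *fcer1gl*, for a shared Fc receptor chain, at 2.66. *cpa5*, *kita* and *gata2a* of that list had log2 fold changes of -1.19, 0.19 and -0.38 and were not called.

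Erythrocyte genes were read as a sign of blood left in the tissue, and whether they follow its amount was not tested. Of 14 tested, 11 were lower and 1, the biliverdin reductase gene *blvrb*, was higher. Their median fold change was -1.09 on the log2 scale, and their summed level was 213 to 303 CPM in *psap* KO and 389 to 659 CPM in WT libraries, with no overlap. Without *psap* KO replicate 4, 7 were lower. The globin gene *hbaa2*, 1 of 2 genes annotated as *hbba1* and the spectrin gene *sptb* had log2 fold changes of -2.65, -1.26 and -0.81, where reads of near-identical globin copies may be split. The called genes with *lect2l* at their head thus rose in libraries with a lower erythrocyte signal, and the part that blood content or macrophage and microglial RNA has in the levels of *mpx*, *npsn* and the other neutrophil genes was not tested. Among the remaining lists, 1 gene was higher and 2 lower of 6 for thrombocytes, 7 higher of 13 for endothelium, 3 higher of 8 for skin and mucosal epithelium, 1 higher of 5 for liver and acute phase, 1 lower of 11 for skeletal muscle (*ttn.1*, for the giant muscle protein titin, at -4.12, with a list median of -2.11), and 5 higher and 7 lower of 16 for brain. Over all genes tested, 22.3% were called higher and 18.5% lower, and the counts for liver and muscle do not exceed these shares. The lower count for thrombocytes was 0 without *psap* KO replicate 1, WT replicate 1 or WT replicate 2 and 1 without *psap* KO replicate 3 or 4. The higher count for liver was 0 without *psap* KO replicate 1 or 4 or WT replicate 2 or 3 and 2 without *psap* KO replicate 2 or WT replicate 4, and the lower count for muscle was 2 without WT replicate 3.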

How the data were processed

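Stranded, ribosome-depleted RNA libraries were made from 8 pools of 3 brains. The authors removed optical duplicates, trimmed reads with cutadapt 1.16, aligned them with STAR 2.6.1b to the Zv10 genome with Ensembl release 94 features and deposited raw counts per gene from featureCounts 1.6.3. The strand setting of the counting is not given in the sources used here. Other columns deposited by the authors give gene positions, printed here as they stand in the annotation, which names no build. The authors' own comparison (fold changes, p-values) and normalized values, from DESeq2 1.22.2, were not used.

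The counts were fitted in edgeR 4.0.16 (R 4.3.3), using TMM scaling, filterByExpr (1731 of 22871 genes left out), a robust quasi-likelihood fit by genotype and Benjamini-Hochberg adjustment over 21140 genes, with a threshold of 0.05. All 7 neutrophil genes in the table passed the filter. Exact two-sided permutation tests ran over the 70 regroupings of 8 libraries on log2 CPM with a prior count of 2. Intervals on ratios of counts cover counting error only. The libraries are called biological replicates, without saying whether the fish came from separate clutches.

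The neutrophil genes and 15 further lists were chosen with earlier results of these data known. Named were every neutrophil gene, the 4 genes with the smallest p on each blood, macrophage and neutrophil-related list, the 5 genes most like *mpx* (average log2 CPM of at least 0), and *lcp1* and *mpeg1.1*. Of the genes under this rule, some are not reported here. Genes outside this rule are marked as named after their values were seen. A planned motif search in promoters was not run. Same-numbered libraries of the genotypes were not taken as pairs, and the authors name none. Their deviations had correlations of 0.06 to 0.17, with 2 of 4 pairs over 0.1. Libraries of different number and genotype had correlations of -0.12 to 0.07. Alternatives were RLE and upper-quartile scaling, other filters, DESeq2 1.42.0, limma-voom (limma 3.58.1), a replicate block, a prior count of 0.5 and leaving out each library.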

Additional observations from a re-analysis of the deposited data

Results flagged for a closer look

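The level of *mpx* in *psap* KO replicate 3 was 2.38 CPM, while the other *psap* KO libraries lay between 1.49 and 1.56 CPM. Its gap to the nearest library was 0.926 of the range, above the critical value of Dixon's test at 95%. It was the only such library among 14 groups examined (7 genes in 2 genotypes), and chance gives about 1 in 20 groups. Without it, the log2 fold change of *mpx* was 0.11 (adjusted p = 0.797 by edgeR with Benjamini-Hochberg adjustment), so the gene was not called with or without that library.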

How the results depend on the processing

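All 7 neutrophil genes kept their direction and their side of the threshold under every alternative that could give a value, namely 15 settings for each gene and 14 for *mpx*, which the filter at a mean count of 50 leaves out. The log2 fold change ranged from 0.11 to 0.47 for *mpx*, 0.13 to 0.65 for *npsn*, 0.62 to 0.88 for *nccrp1*, 1.34 to 1.54 for *srgn*, 1.49 to 1.87 for *ncf1*, 2.25 to 2.42 for *csf3r* and 5.30 to 6.29 for *lect2l*. Over the whole table, 4100 to 5080 genes were higher and 3362 to 4429 lower, against 4720 and 3903. The difference of *csf3r* relative to *mpeg1.1* ranged from -0.158 to 0.0526 when each library was left out in turn, and turned positive without *psap* KO replicate 4 (0.02) or WT replicate 3 (0.05). With a prior count of 0.5, the difference of *lect2l* was 3.43 relative to *lcp1* and 3.06 relative to *mpeg1.1*, since its WT counts are few. The lymphocyte list had 0 higher genes at a mean count of 50, where fewer of its genes were tested, and the erythrocyte list had 7 lower genes without *psap* KO replicate 4. Leaving out single libraries moved the count of lower genes to between 0 and 2 for thrombocytes (2 with all libraries) and of higher genes to between 0 and 2 for liver (1 with all libraries), and gave 1 lower gene at most for granulopoiesis, mast cells and endothelium, which had 0; the cause was not tested.

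With the replicate number as a block, 4908 genes were higher and 4429 lower, 5 neutrophil genes stayed higher and none lower, and *mpx* had a log2 fold change of 0.30 (adjusted p = 0.435 by edgeR with Benjamini-Hochberg adjustment). Of the 8 libraries, 5 correlated best with the library of the same number, which is a hint of pairing from the data. The authors processed WT and KO samples in turn but name no pairs. The block changed no call on these genes.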
